A study of Homo sapiens with 4 samples.

Results

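Cells rich in mitochondrial RNA were compared with the remaining cells of the untreated HCT116 library. Cells were selected on a measured value: a cell was placed in the first class when genes of the mitochondrial genome (names beginning with MT-) made up more than 25% of its gene and transposable element (TE) counts. Of the 3658 cells of this library, 364 lay above that threshold, or 9.95% (95% Clopper-Pearson interval 8.999 to 10.97), and 3294 lay at or below it. The whole series held 15289 cells in 4 libraries. HCT116 is a human colorectal cancer line and H1299 a line from a human non-small cell lung cancer. Both were taken at passage 5 to 10 and profiled with the 5′ single-cell chemistry of 10x Genomics, which primes on poly(A) and reads RNA from its 5′ end. Untreated cells received DMSO, the solvent. Treated cells received 500 nM DAC (decitabine, an inhibitor of DNA methyltransferases) for 72 h and 500 nM SB939 (an inhibitor of histone deacetylases) for 18 h, in medium renewed at 24 h intervals. Each line and treatment was 1 library, so the cells below are cells of 1 culture, no test between classes was possible and no difference has a replicate check.

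The mitochondrial genome is transcribed as long precursors from both strands. They are cut at the transfer RNAs into 2 ribosomal RNAs (the 12S MT-RNR1 and the 16S MT-RNR2), messenger RNAs for subunits of the respiratory chain and the transfer RNAs themselves. The ribosomal RNAs form the mitochondrial ribosome together with proteins imported from the cytosol. A high mitochondrial share of counts is widely used in single-cell work to set aside cells thought to be damaged.

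The rule weighed all mitochondrial genes alike, and its label names MT-CO1 and MT-ND4, which encode subunits of cytochrome c oxidase and of complex I. The values below chose the cells and are a description. Levels are counts per 1000000 nuclear gene counts of the class (CPM), and a ratio is the level in the cells above 25% over that in the other cells. Mitochondrial rRNA (every feature naming MT-RNR1 or MT-RNR2) stood at 412371 CPM in the cells above the threshold and 111096 in the others, a ratio of 3.71. Mitochondrial RNA other than rRNA stood at 84674 and 74469 CPM, a ratio of 1.14. rRNA thus made up 83.0% of the summed mitochondrial counts of the cells above 25% and 59.9% of those of the others. MT-CO1 was at 11049 and 8933 CPM, a log2 ratio of 0.31. MT-ND4 was listed only under a name joined with MT-ND4L, at 32.9 and 30.8 CPM, with a log2 ratio of 0.10 and a 95% counting interval of -0.16 to 0.34. These genes overlap only from chrM:10760 to chrM:10766, so this feature cannot be taken as the level of MT-ND4. MT-ND4L joined with MT-TR was at 8511 and 7392 CPM, a log2 ratio of 0.20. In these counts, which chose the cells, the classes differed more in mitochondrial rRNA than in other mitochondrial RNA. MT-CO1, a marker of the label, differed far less than the rRNAs did, and MT-ND4 could not be judged.

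The 4 sequences below are shown because the contrast lies between these transcripts: the rRNAs, whose level was high, and a pair of mRNAs, whose ratios were much smaller. Each is the 60-base window of the GENCODE transcript (GRCh38, plus strand) with the most A, and capitals mark runs of at least 4 A. The windows are chrM:966-1025 in MT-RNR1, chrM:1770-1829 in MT-RNR2, chrM:6385-6444 in MT-CO1 and chrM:15821-15880 in MT-CYB, which encodes cytochrome b.
MT-RNR1: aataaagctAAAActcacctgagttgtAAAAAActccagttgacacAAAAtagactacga
MT-RNR2: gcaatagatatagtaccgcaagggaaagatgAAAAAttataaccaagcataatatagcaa
MT-CO1: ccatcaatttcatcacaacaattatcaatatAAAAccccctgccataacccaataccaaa
MT-CYB: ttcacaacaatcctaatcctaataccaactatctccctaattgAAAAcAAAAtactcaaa
Such runs occurred 9.43 times per 1000 bases in MT-RNR1, 8.34 in MT-RNR2, 3.24 in MT-CO1 and 4.38 in MT-CYB. MT-ND3, at 8.67 per 1000 bases, and MT-ND5, at 8.28, lay near MT-RNR2 and below MT-RNR1, with log2 ratios of -0.08 and 0.49 under their own names. MT-ND2 had 7.68 and MT-ATP8, the shortest of these, 24.15, with log2 ratios of 0.09 and 0.20. The part of A runs in the ratios was not tested.

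Single cells showed the same split. The median cell above 25% held 331 rRNA counts per 1000 nuclear counts (middle 50% of cells, 284 to 456), against 103 (81.0 to 135) in the others. All 364 cells lay above the upper quartile of the other cells, in a quantity that the rule itself counts. For the remaining mitochondrial RNA the medians were 83.2 (67.8 to 113) and 75.5 (65.2 to 86.6) per 1000 nuclear counts, and 164 of the 364 cells lay above the upper quartile of the others. The classes overlapped in this measure, with the cells above 25% reaching higher: 45.1% of them lay above that quartile, and their highest value was 226 against 163. rRNA exceeded 50% of mitochondrial counts in all 364 cells above the threshold and in 2621 of the 3294 others. Across all 3658 cells, Spearman's rho between the 2 measures was 0.19, and among the 364 cells it was -0.28. Both measures share the same denominator, and the threshold on their sum acts on the second value. When as many cells were instead taken by their share of rRNA alone, 333 were the same cells. Taken by the share of other mitochondrial RNA, 82 were the same, or 22.5% of the 364, where 9.95% of all cells are in the class.

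**Figure D1:**
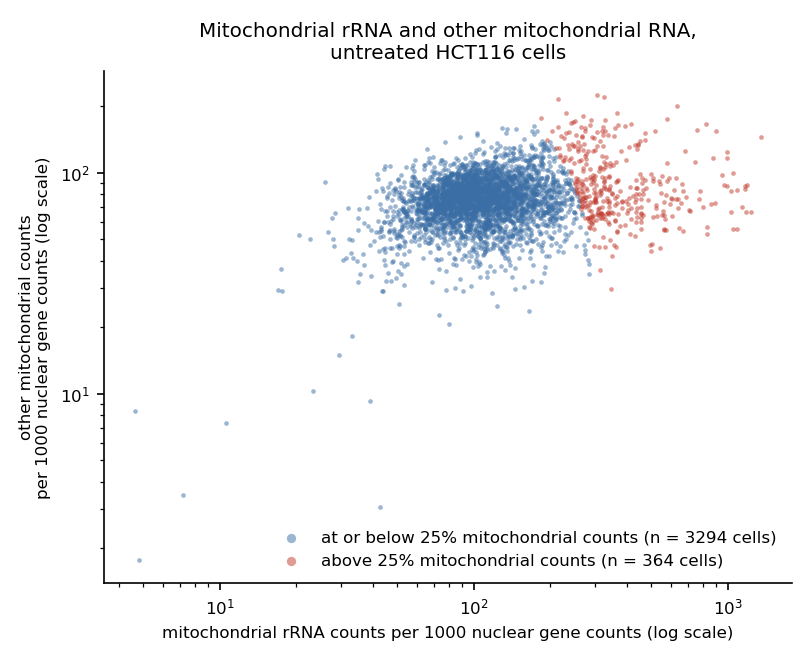
Each point is 1 untreated HCT116 cell, with mitochondrial rRNA counts (x axis) and other mitochondrial counts (y axis) per 1000 nuclear gene counts, both on log scales, and the 364 cells above 25% in red. The red cells lie to the right of most blue cells (medians 331 and 103) and at much the same height (medians 83.2 and 75.5).

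Within the rRNAs the features differed. Joined names hold genes that are neighbours on the mitochondrial genome, and the way the authors formed them is not given here. MT-RNR2 joined with the transfer RNA gene MT-TV, which adjoins its 5′ end, held the most counts and the highest ratio: 232852 and 50918 CPM, a log2 ratio of 2.19. MT-RNR1 joined with MT-TF, its own 5′ neighbour, was at 110129 and 35214 CPM, a log2 ratio of 1.64. Under its own name MT-RNR2 reached 1.54 and MT-RNR1 1.32. Summed over names, MT-RNR2 was 4.16 times and MT-RNR1 3.01 times as high in the cells above 25%.

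Features naming a protein-coding gene ran from -0.08 for MT-ND3 to 0.49 for MT-ND5, both complex I subunits. MT-ND5 stood at 2475 and 1765 CPM. MT-ND6, the complex I subunit read from the opposite strand, had a log2 ratio of 0.46 under its own name and 0.24 joined with MT-TE, which held more counts. MT-CO2 joined with MT-TD, the most abundant mRNA feature, was at 22675 and 20476 CPM, a log2 ratio of 0.15. MT-CYB was at 10867 and 9725 CPM, a log2 ratio of 0.16. The feature joining the transfer RNA genes MT-TI and MT-TM had 158 counts in the cells above the threshold and 888 in the others, a log2 ratio of 0.93 (0.68 to 1.17). MT-TP, the other transfer RNA feature with at least 500 counts, had 85 and 912, a log2 ratio of -0.0044 (-0.34 to 0.32).

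**Figure D2:**
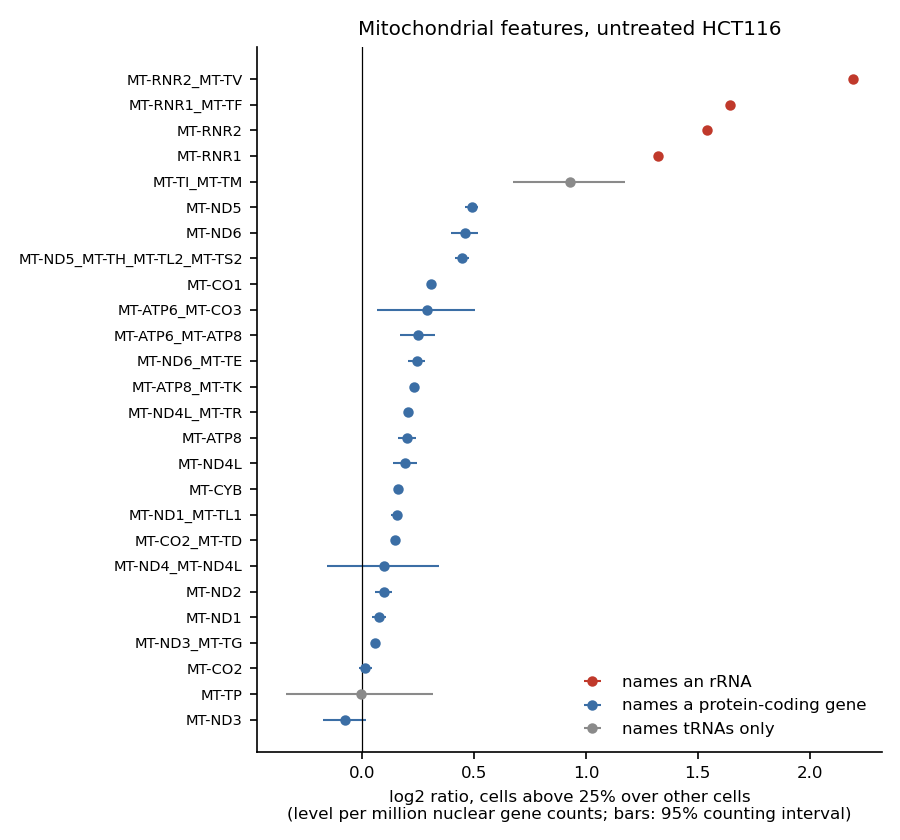
log2 ratio (x axis) of each mitochondrial feature with at least 500 counts, by kind, with 95% counting intervals. The 4 features naming an rRNA lie from 1.32 to 2.19, and those naming a protein-coding gene from -0.08 to 0.49.

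The cells above 25% were not shallow. Their median total was 17384 counts per cell against 16167.5, their median nuclear count 11657 against 13612.5 (a ratio of 0.86) and their median mitochondrial count 5277 against 2488. The lowest nuclear count of a cell was 3063 above the threshold and 2895 below it. After each cell was thinned to 5600 nuclear counts, which left out 36 cells above the threshold and 54 others, the median number of nuclear gene names detected was 2360.5 (2243 to 2441) against 2281 (2176 to 2380). Before thinning it was 3571 against 3821.5. Cells on either side of the threshold were near each other in rRNA. The 63 cells between 24% and 25% had a median of 235 rRNA counts and 90.2 other mitochondrial counts per 1000 nuclear counts, and the 50 cells between 25% and 26% had 266 and 79.3. Their median nuclear counts were 11540 just below the threshold and 14173.5 just above it.

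The library was checked against 10 marker genes of each line. Of the HCT116 markers 9 had a count, and they summed to 202 CPM in the cells above 25% and 207 in the others. EPCAM, an epithelial adhesion protein, was at 93.1 and 98.6 CPM. CDH1, ELF3, LGALS4 and AGR2 were near 0 in both classes and MAL2 had no count under a name of its own. The H1299 markers summed to 261 and 242 CPM, mostly CALD1 at 161 and 156. VIM was at 58.4 and 57.1 CPM. ZEB1 had a log2 ratio of 0.48 (0.18 to 0.77) and FSTL1 one of 0.53 (0.15 to 0.89). All 4 H1299 markers with at least 500 counts were above 0, and 2 of the 5 such HCT116 markers. Over all genes compared below, 64.6% were above 0. G0S2, CDH2, NNMT and MAGEA4 had no count and SPARC and GNG11 were near 0. Of the cell barcodes, 60 also occurred in another library, 8 of them in cells above 25%.

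For the nuclear genome 8712 genes were compared, those under a name of 1 gene with at least 500 counts in the library. Genes of histone proteins, which package DNA, led the genes that were higher. At least 1.5-fold higher in the cells above 25% were 295 genes (3.39%), and at least 1.5-fold lower were 8 (0.0918%). The filter sums both classes, so a gene near 500 counts could pass only through its counts in the cells above 25%. Of the 295, 111 were among the 20% of genes with the fewest counts (500 to 851). The median log2 ratio over all genes was 0.09, with the middle 50% between -0.06 and 0.26. At least 2-fold higher were 17 genes (0.195%), of which 8 were histone genes, and none was 2-fold lower. With both classes limited to cells of 8311 to 15162 nuclear counts, 149 genes were at least 1.5-fold higher and 19 lower. The counts moved with other settings too: 93 and 1 at a threshold of 20%, 539 and 89 at 30%, and 1004 and 531 with a minimum of 50 counts. Among the 12 genes whose counting interval lay farthest above 0, 8 encode histones.

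HIST1H1E, the most abundant of these 8 and the gene of a linker histone, was at 771 CPM in the cells above 25% and 305 in the others, a log2 ratio of 1.34 (1.28 to 1.39). HIST1H2BC was at 173 and 61.7 CPM (1.49, 1.37 to 1.60). HIST2H2BF was at 123 and 36.9 (1.73, 1.59 to 1.87). HIST1H2BK was at 40.9 and 11.95 (1.77, 1.52 to 2.02). HIST1H3H reached 1.65, HIST1H4B 1.51, HIST1H2BF 1.25 and HIST1H2BJ 1.00 on the same scale. These genes encode core histones H2B, H3 and H4. HIST1H3H had 473 counts in the other cells, below the filter's minimum. It passed only with its 139 counts in the cells above 25%. The counts of these histone genes were uneven between cells, so the intervals, which cover counting error only, are too narrow. A single cell held 22.04% of the HIST2H2BF counts of its class, and without that gene's largest cell the log2 ratio was 1.38. HIST1H2BC was then 1.31, HIST1H4B 1.26 and HIST1H1E 1.25. In cells thinned to 5600 nuclear counts, HIST1H1E was found in 186 of 328 cells above the threshold, or 56.7% (51.2 to 62.1), and in 1437 of 3240 others, or 44.4% (42.6 to 46.1). HIST1H2BK was found in 16.8% (12.9 to 21.3) and 4.88% (4.16 to 5.68). Unthinned, the shares were 68.4% and 56.6% for HIST1H1E and 23.4% and 11.4% for HIST1H2BK. Without a cell type that lacks these genes, no background share could be set beside them.

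Of the 83 gene names beginning with HIST that the table lists, 57 had a count in this library and 27 passed the filter of 500 counts. A gene could pass through either class. Of the 27, 16 were at least 1.5-fold higher, none was 1.5-fold lower and the median log2 ratio was 0.72. HIST1H3H, among these 16, had 473 counts in the other cells. It passed the filter only with its 139 counts in the cells above the threshold. Over all genes compared, 3.39% were higher, 0.0918% lower and the median was 0.09. This list was drawn up after the values had been seen. HIST1H4C was the exception and the most abundant: it stood at 2189 and 2565 CPM, a log2 ratio of -0.23 (-0.26 to -0.20). It is counted in the summed level of the list, and that sum had a log2 ratio of 0.33. A second histone list, of linker, variant and polyadenylated genes, shared members with it, HIST1H4C among them. Of its 16 genes compared, 5 were at least 1.5-fold higher and none was lower. Its median log2 ratio was 0.24, and its summed level had a log2 ratio of 0.02. Histone genes under other names, mostly of variants and linker histones, went in both directions, and none of the 8 compared passed 1.5-fold. H2AFZ was at 1856 and 2025 CPM (-0.13) and H3F3B at 1611 and 1701 (-0.08), and H2AFV (-0.14), H3F3A (-0.10) and H1FX (-0.05, -0.27 to 0.16) were also below 0. H1F0 was at 286 and 233 CPM (0.29, 0.21 to 0.38), H2AFX at 203 and 180 (0.18, 0.08 to 0.28) and H2AFY at 147 and 134 (0.13, 0.01 to 0.25). Replication-dependent histone genes of the same class resemble each other, and reads could have been split between them, so the values of single histone genes are uncertain. Such splitting was not tested. RMRP, a small RNA that, like most histone mRNAs, is made without a poly(A) tail, was at 121 and 65.9 CPM (0.87, 0.74 to 1.01). Of 15 small RNAs without such a tail that had a count, a list also chosen after the values were seen, only RMRP and RN7SL2 (0.30, -0.05 to 0.63) passed the filter. Those below the filter went in both directions, all with intervals that include 0, such as RPPH1 (0.30, -0.16 to 0.73) and RNU12 (-0.17, -0.85 to 0.45).

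Promoters of 3 histone genes with high ratios are shown because these genes were higher together. Each is the 120 bases before the transcription start in RefSeq (GRCh38.p14), with TATAAA and CCAAT on either strand in capitals. They are chr6:27146859-27146978 (minus strand) for HIST1H2BK, chr6:26156209-26156328 (plus strand) for HIST1H1E and chr1:149812371-149812490 (minus strand) for HIST2H2BF.
HIST1H2BK: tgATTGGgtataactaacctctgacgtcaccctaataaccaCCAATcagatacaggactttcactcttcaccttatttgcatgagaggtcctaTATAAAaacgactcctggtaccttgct
HIST1H1E: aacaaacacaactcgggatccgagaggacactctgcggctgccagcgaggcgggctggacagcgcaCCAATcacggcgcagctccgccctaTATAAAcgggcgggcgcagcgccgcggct
HIST2H2BF: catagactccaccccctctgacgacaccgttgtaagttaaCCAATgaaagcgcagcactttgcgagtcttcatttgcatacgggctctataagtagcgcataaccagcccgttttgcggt
RefSeq held a promoter within 1000 bases of the GENCODE gene for 23 of the 27 histone genes. In the 300 bases from 250 before to 50 after the start, TATAAA was found on either strand in 18 of the 23, or 78.3%, and in 11.5% of all 35116 promoters. CCAAT was found in 21, or 91.3%, and in 34.6% of all promoters. Matches of one motif may share bases with the other. Genes with low ratios held them too: HIST2H2AC (log2 ratio 0.21) and HIST1H2AJ (0.23) held both.

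MTRNR2L12 was the one gene among the highest that resembles mitochondrial sequence. Its level was 30.4 and 9.23 CPM, a log2 ratio of 1.72 (1.43 to 2.003). MTRNR2L12 had 435 counts in the other cells, below the filter's minimum. It passed only with its 134 counts in the cells above the threshold. It lies on chromosome 3 (GRCh38, 96617188 to 96618236), and its 1049-base transcript matched MT-RNR2 at 95.1% of aligned positions, with 52 differences. Its counts may therefore hold reads of MT-RNR2 and are uncertain. MTRNR2L1, with 88.4% identity, had a log2 ratio of 0.59. PODXL, a sialomucin of the cell surface, was at 34.7 and 14.4 CPM (1.27, 1.00 to 1.52). RFX7, a transcription factor, was at 28.2 and 12.3 (1.20, 0.90 to 1.48). NUP98, a protein of the nuclear pore, was at 148 and 73.0 (1.02, 0.89 to 1.14). For PODXL, RFX7 and NUP98 no single cell held more than 4.58% of the counts of its class.

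The genes that were lower differed less. Of the 12 with intervals farthest below 0, 3 passed 1.5-fold: RPS10, HERC5 and RAD51D. RPS10, a ribosomal protein, was at 7.04 and 13.5 CPM (-0.94, -1.51 to -0.42), but most of its reads were listed under a name joined with RPS10-NUDT3, and with joined names added its log2 ratio was -0.14. HERC5, a ligase for the interferon-induced modifier ISG15, was at 11.4 and 19.3 CPM (-0.77, -1.21 to -0.36). RAD51D, a protein of homologous recombination, was at 11.4 and 18.4 (-0.70, -1.14 to -0.29). DCAF13 was at 125 and 173 CPM (-0.46). DUT, the enzyme that removes dUTP, was at 107 and 138 (-0.37). PGD, of the pentose phosphate pathway, was at 77.9 and 99.8 (-0.36). Genes of mitochondrial proteins among them were MRPS34, of the small mitochondrial ribosomal subunit, at 280 and 344 CPM (-0.30), and NFU1, a carrier of iron-sulphur clusters, at 47.7 and 63.9 (-0.42). FAM104B, HDDC3, FBXO2 and CFD (complement factor D) had log2 ratios of -0.56, -0.56, -0.57 and -0.33.

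**Figure D3:**
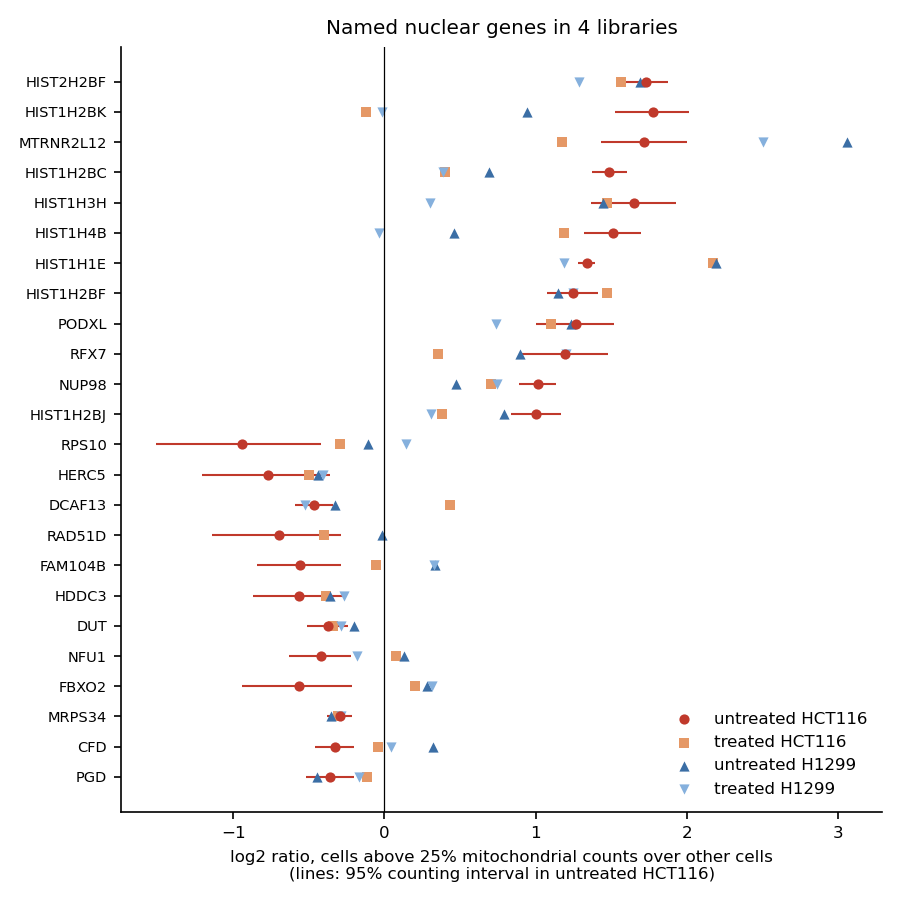
log2 ratio (x axis) of the 12 genes with intervals farthest above 0 and the 12 farthest below in untreated HCT116 (red, with 95% counting intervals), and the same ratio at the same threshold in the other 3 libraries. HIST1H2BK is at 1.77 in untreated HCT116 and at -0.12 in treated HCT116, whereas HIST1H1E lies between 1.19 and 2.19 in all 4.

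Nuclear genes of the respiratory chain, whose products work beside the mitochondrially encoded subunits, were slightly lower. Of 69 subunits compared, none passed 1.5-fold in either direction, 60 had a log2 ratio below 0 and the median was -0.13. Over all genes 64.6% were above 0 and the median was 0.09, and it was -0.03 over the 20% of genes with the most counts. The 32 complex I subunits had a median of -0.13, from -0.27 for NDUFA5 to 0.23 for NDUFA9. COX7C, of cytochrome c oxidase, was at 1098 and 1221 CPM (-0.15), UQCRH, of the bc1 complex, at 1079 and 1162 (-0.11) and ATP5E, of ATP synthase, at 1810 and 1918 (-0.08). The 73 mitochondrial ribosomal proteins, partners of the rRNAs, had a median of -0.08, with 1 at least 1.5-fold higher, MRPS22 (126 and 76.8 CPM, 0.71), and none lower. MRPL36 was the lowest (-0.33). Of 24 genes for mitochondrial transcription and RNA processing, none passed 1.5-fold and the median was 0.06. TFAM, which packages mitochondrial DNA and takes part in its transcription, was at 135 and 145 CPM (-0.10, -0.22 to 0.02). LRPPRC, which stabilises mitochondrial mRNAs, was at 142 and 117 (0.27), and PNPT1, a mitochondrial exoribonuclease subunit, at 42.7 and 29.6 (0.53). Import factors and chaperones had a median of -0.05 (HSPD1 -0.12) and tricarboxylic acid cycle enzymes 0.07 (DLST 0.53), again with none past 1.5-fold. Of 27 genes listed for fission, fusion and mitophagy, 2 were at least 1.5-fold higher, beside 3.39% of all genes, and the median was 0.02. The highest was PPARGC1B (0.67), a transcriptional coactivator rather than a gene of these processes.

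Cytosolic ribosomal proteins, the most abundant group, were 0.93 times as high in sum. Of 79, 77 had a log2 ratio below 0, where 64.6% of all genes were above it, with RPLP1 at 13237 and 14325 CPM (-0.11), and only RPS10 passed 1.5-fold. The group is part of the scaling, so its lower share raises every other ratio by construction. Scaled without it, 229 genes were at least 1.5-fold higher and 13 lower. Glycolysis enzymes had a median of 0.11, with none of 18 past 1.5-fold, and GAPDH was at 5842 and 5260 CPM (0.15).

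Stress and death pathways were read against the 3.39% of all genes that were 1.5-fold higher and the 0.0918% that were lower. Of 15 hypoxia targets compared, 2 were at least 1.5-fold higher, PDK1 at 0.78 (0.44 to 1.11) among them, and the median was 0.29. PDK1 inhibits pyruvate dehydrogenase. BHLHE40 was at 53.4 and 35.6 CPM (0.58) and VEGFA, the vascular growth factor, at 41.6 and 36.3 (0.20, -0.03 to 0.42). Immediate early genes had a median of 0.17 with 1 of 22 past 1.5-fold, KLF10 (0.59), and MYC was at 274 and 198 CPM (0.47). Targets of ATF4, the factor of the integrated stress response, had a median of 0.04 with 2 of 30 past 1.5-fold, and the lowest was CHAC1 (-0.40, -0.78 to -0.05). Endoplasmic reticulum chaperones had 0.13 and cytosolic heat shock chaperones 0.04, with none past 1.5-fold. Of 22 p53 targets, MDM2, which marks p53 for degradation, alone passed 1.5-fold, at 110 and 66.2 CPM (0.73, 0.59 to 0.87), and the median was -0.05. None of 23 BCL2 family and caspase genes passed it (median 0.06), and MCL1, a survival factor, was at 140 and 107 CPM (0.39). Of 28 antioxidant genes, GSR, glutathione reductase, was at 89.5 and 54.1 CPM (0.73), and the median was -0.07. Interferon-stimulated genes had a median of 0.14 over 12 genes. None was 1.5-fold higher and 1 was lower, HERC5 (-0.77). The highest was OAS3 (0.51), and ISG15 was at 61.1 and 78.6 CPM (-0.36).

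Cell cycle genes had smaller ratios than the HIST genes. Of 42 S phase genes, whose activity accompanies histone synthesis, 1 was at least 1.5-fold higher (ORC1, 0.66), near the 3.39% of all genes, and none lower, with a median of 0.13. Per cell, 132 of the 364 cells (36.3%) lay above the other cells' upper quartile in summed S phase genes, against 115 (31.6%) for all HIST genes, 143 (39.3%) for those without HIST1H4C and 71 (19.5%) for HIST1H4C. TYMS, thymidylate synthase, was at 402 and 356 CPM (0.18). Of 50 genes of G2 and mitosis none passed 1.5-fold and the median was -0.02, although MKI67, the proliferation marker, was at 517 and 381 CPM (0.44). Of 7 nuclear-retained RNAs compared none passed 1.5-fold, and their median was 0.08, near the 0.09 over all genes. MALAT1 was at 8569 and 9184 CPM (-0.10) and NEAT1 at 656 and 668 (-0.03, -0.08 to 0.03), and KCNQ1OT1 was the highest, at 54.5 and 44.5 (0.29, 0.09 to 0.48). Cholesterol synthesis genes (median 0.07), proteasome subunits (-0.07), actin and tubulin genes (-0.01), translation factors (0.03), epithelial genes (0.03), metallothioneins (-0.03) and NF-kB targets (0.12) had no member past 1.5-fold.

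The ratio also varied with properties of the genes. Of the 8712 genes, 8275 were placed in GENCODE by symbol. Over the 20% of genes with the shortest annotated span (up to 11236 bases) the median log2 ratio was -0.03, and over the 20% with the longest (from 90682 bases) it was 0.20, with 1.69% and 5.80% of genes at least 1.5-fold higher. Spearman's rho between span and ratio was 0.32 across these genes, and 0.16 to 0.39 within groups of similar abundance. Abundance went the other way: the 20% of genes with the fewest counts had a median of 0.16 and the 20% with the most -0.03 (rho -0.25 across 8712 genes). Genes of 1 library share its cells and depth, so these are descriptions without a p-value.

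TE counts were 3973 CPM in the cells above 25% and 3872 in the others, a ratio of 1.03 (1.01 to 1.04). It was 1.00 when ribosomal protein counts were left out of the scaling and 0.996 when the cells were ranked by rRNA, so no direction is given. Families differed in direction. Names beginning with L1, retrotransposons of the LINE class, summed to 741 and 593 CPM (ratio 1.25, 1.20 to 1.30), and those beginning with Alu, short retrotransposons, to 1167 and 1311 (0.89, 0.86 to 0.92). LTR7, the long terminal repeat of the HERVH family, was at 191 and 128 CPM (1.49, 1.39 to 1.61), and HERVH itself at 42.0 and 25.5 (1.65, 1.40 to 1.92). LTR12C was at 344 and 385 (0.89, 0.85 to 0.94). Of 56 families with at least 500 counts, 3 were at least 1.5-fold higher (5.36%) and 2 lower (3.57%). TE counts enter the denominator of the rule.

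The differences did not begin at the threshold. Over bins of mitochondrial share, rRNA went from 44309 CPM in the 125 cells up to 10% to 125136 in the 1377 cells from 15% to 20% and 822114 in the 51 cells above 40%. Other mitochondrial RNA went from 44629 to 79960 over the first of these steps and was 85484 above 40%. Both measures make up the share that sets the bins (Spearman's rho of the share with rRNA 0.94), so their values here are a description and no support. All HIST genes together were at 3481, 4300 and 7219 CPM in the same 3 bins. Without HIST1H4C, left out after its values were seen, they were at 859, 1683 and 4771 CPM, and were already at 2237 in the 402 cells from 20% to 25%. S phase genes were at 2533, 3083 and 3376 CPM in those 3 bins, so they too were lowest in the lowest bin. Glycolysis genes were highest in the lowest bin, at 14380 CPM against 9552 from 15% to 20% and 11596 above 40%, and genes of G2 and mitosis were at 7681, 6466 and 6391. The histone genes dipped to 2100 in the 82 cells from 30% to 35%, where HIST1H4C also had its lowest level, 1718, against 2617 from 15% to 20%. Ribosomal protein genes went down from 263788 CPM in the lowest bin to 234121 in the highest, and nuclear respiratory chain genes from 27765 to 24893. Median nuclear counts per cell went from 15750 to 10983 across the same bins.

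**Figure D4:**
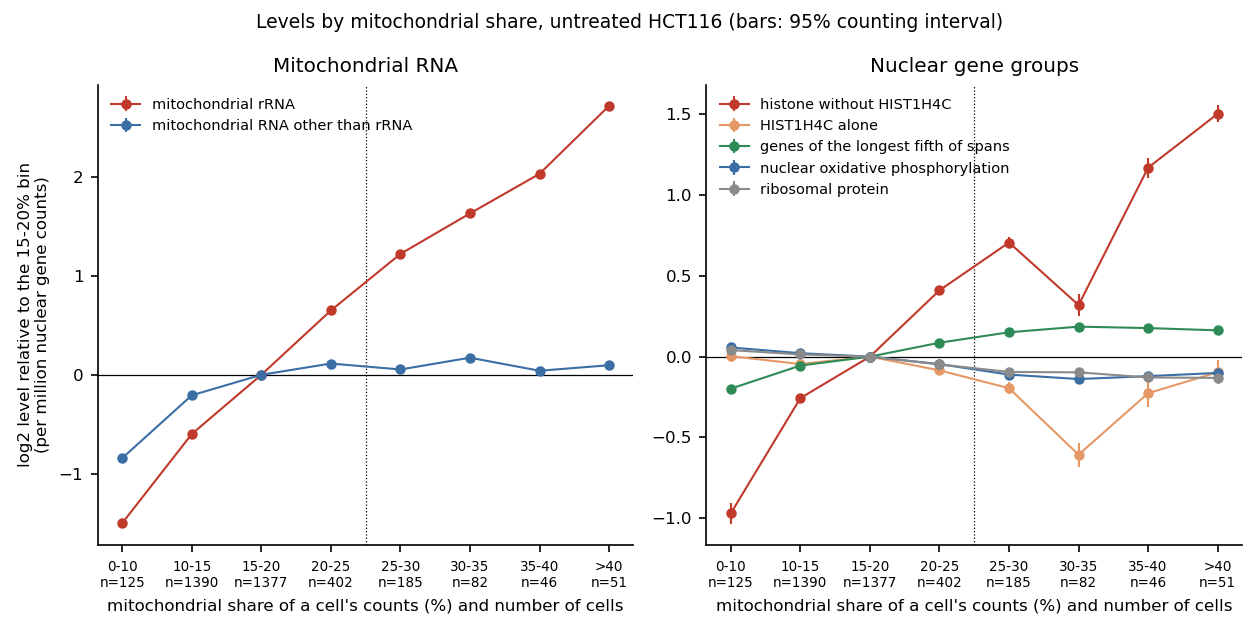
log2 level (y axis, from CPM, relative to the cells from 15% to 20%) over bins of mitochondrial share (x axis, with the number of cells), with 95% counting intervals and the 25% threshold dotted. rRNA climbs by 2.72 from the reference bin to the cells above 40% and other mitochondrial RNA by 0.10, and both are part of the share on the x axis. Histone genes without HIST1H4C reach 1.504 with a dip at 30% to 35% (0.75 for all HIST genes together, which are not drawn).

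Which mitochondrial RNA set the class changed what accompanied it. With the 364 cells taken by rRNA alone, 267 of the 8712 genes compared were at least 1.5-fold higher, 218 of them among the 295. The 267 held 15 of the 27 HIST genes, whose median was 0.65, against 0.08 over all genes. With the 364 cells richest in other mitochondrial RNA, rRNA was 1.07 times and other mitochondrial RNA 1.62 times as high as in the remaining cells. There, 113 genes were at least 1.5-fold higher, 22 of them among the 295 (which are 3.39% of all genes), and 48 were lower. None of the 27 HIST genes was 1.5-fold higher, which is near the share over all genes, 113 of 8712. Their median was -0.27, against 0.03 over all genes. These cells had a median of 9409 nuclear counts, lower than the 11657 of the cells above 25%, and TE counts were 1.32 times as high in them. The part of depth in these differences was not tested.

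The other libraries, which the rule did not use, were split at the same 25%. Above it were 1086 of 4327 treated HCT116 cells (25.1%, 23.8 to 26.4), 91 of 3578 untreated H1299 cells (2.54%, 2.05 to 3.11) and 88 of 3726 treated H1299 cells (2.36%, 1.90 to 2.90). rRNA was the larger part of the excess in each: its ratio was 3.24, 7.25 and 7.52 in that order, against 1.63, 1.33 and 1.74 for other mitochondrial RNA. The treated HCT116 cells above 25% had a median of 2588.5 nuclear counts against 7641 in the others, and the medians were 12383 against 15731 in untreated and 8166.5 against 13755.5 in treated H1299. In all 3 the gap was wider than in untreated HCT116. In these libraries 753 (11.5%), 827 (9.15%) and 1407 (15.5%) genes were at least 1.5-fold higher and 57 (0.874%), 338 (3.74%) and 567 (6.25%) lower. The cells above 25% held 4403626 of 51509230 nuclear counts in untreated HCT116. They held only 1158043 of 58268699 in untreated and 795009 of 54660066 in treated H1299. Ratios of genes near the filter thus rest on fewer counts in H1299, and the numbers of genes are not like for like between libraries. Of the 295 genes, 153, 248 and 225 also had 500 counts there, and 87, 116 and 144 of these were at least 1.5-fold higher. That is 56.9%, 46.8% and 64.0% of them, where 10.6%, 8.03% and 14.8% of all genes compared in both were. They made up 13.4%, 18.5% and 12.8% of the 649, 626 and 1122 genes that were higher there among those compared in both. Across genes the log2 ratios of untreated HCT116 had a Spearman's rho of 0.56 with treated HCT116 (6101 genes), 0.40 with untreated H1299 (7794) and 0.44 with treated H1299 (7590), as a description. The libraries were separate captures, but the relations of the ratio to gene span and abundance had the same sign in all 4.

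The HIST genes had medians of 1.02 in treated HCT116 (20 of 27 at least 1.5-fold higher), 0.91 in untreated H1299 (18 of 25 with counts in both classes) and 0.12 in treated H1299 (4 of 27). Over all genes 11.5%, 9.15% and 15.5% were 1.5-fold higher, but among genes with at least 500 counts in that library, whereas the HIST genes were filtered in untreated HCT116, so the shares are not like for like. The median log2 ratio of all genes compared both in untreated HCT116 and in that library was 0.12, 0.07 and 0.10 in the same order. In treated H1299 the HIST median was thus near that of all genes. At least 1.5-fold lower were 2 HIST genes in untreated H1299 and 3 in treated H1299, where 10 of the 27 were below 0. HIST1H4C was below 0 in all 4 libraries, at -0.26, -0.71 and -0.93 in the other 3. Of the 12 genes named as highest, 11, 12 and 10 were above 0 there, where 62.6%, 59.3% and 59.4% of all genes compared in both were. The named genes, highest and lowest, were not held to 500 counts there, unlike the genes behind these shares. HIST2H2BF had 5 counts in the treated H1299 cells above 25%. MTRNR2L12 reached 1.18, 3.06 and 2.50, and PODXL 1.099, 1.23 and 0.74. In H1299 the PODXL intervals included 0 (-0.0036 to 2.24 untreated and -0.18 to 1.53 treated). Of the 12 named as lowest, 9, 8 and 7 (the last of 11 with a value) were below 0, to be read against the same shares of genes above 0. HERC5 was at -0.50, -0.44 and -0.41, and MRPS34 at -0.31, -0.35 and -0.29. In H1299 the HERC5 intervals included 0 (-1.20 to 0.23 untreated and -1.28 to 0.34 treated). So did that of MRPS34 in treated H1299 (-0.64 to 0.04). The medians of the 69 nuclear respiratory chain genes were -0.21, -0.11 and -0.18, and those of the 79 ribosomal proteins -0.16, -0.08 and -0.04. Each of these is 1 value per library, and the differences between libraries were not tested.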

How the data were processed

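Counts per cell, as deposited, came in 2 tables, for genes and for TE. The counting tool, its annotation and whether molecules or reads were counted are not given here. Per the submitters' processing notes, CASAVA and STAR were used with GRCh38 (hg38). Cells were assigned to the 4 libraries by the suffix of their barcode. Every deposited cell was kept and no doublet caller was run. The untreated HCT116 library held 62639099 gene and TE counts, with 51509230 nuclear gene counts, of which 92.2% lay in the genes compared. Joined gene names (5.58% of nuclear counts) were left out of the gene comparison, except in an alternative, and kept in the totals.

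Counts were summed per class with Python 3.11.15, NumPy 2.4.6, SciPy 1.17.1 and pandas 2.3.3 and divided by summed nuclear gene counts. Ratios carry exact conditional binomial 95% intervals and shares of cells Clopper-Pearson intervals, which cover counting error only and treat counts as independent. The computation was tested on simulated data. Counts of genes use at least 500 counts in the library and 1.5-fold. Named genes are the 12 highest and 12 lowest by the interval end nearest 0, and from each list its highest, its lowest and up to 4 most abundant members. MTRNR2L1, HIST1H2AJ, HIST2H2AC and the histone variants beyond those were named after their values were seen, and markers of the lines are named as a check of the label. The members of the class, the gene lists and these rules were chosen with earlier results of these data known. Gene positions come from GENCODE v29. Alternatives changed the threshold, scaling, names, depth, cell weights and filters.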

Additional observations from a re-analysis of the deposited data

Results flagged for a closer look

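DCAF13, which encodes a factor of small ribosomal subunit assembly, had ratios of opposite sign in the 2 HCT116 libraries, with both counting intervals clear of 0. Other named genes also differed in sign between these libraries, among them HIST1H2BK (1.77 and -0.12) and FBXO2 (-0.57 and 0.20), but with treated HCT116 intervals that include 0. Its log2 ratio of cells above 25% mitochondrial counts over the others was -0.46 (-0.59 to -0.34) in untreated and 0.44 (0.31 to 0.56) in treated HCT116. In untreated and treated H1299 it was -0.33 (-0.59 to -0.07) and -0.53 (-0.92 to -0.16). The intervals cover counting error only, and the difference between libraries was not tested.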

How the results depend on the processing

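Counts of genes depended on most settings, and the cause was not tested beyond what each setting changes by construction. Against 295 genes at least 1.5-fold higher and 8 lower, a threshold of 20% gave 93 and 1, a threshold of 30% gave 539 and 89, features without a number 175 and 17, cells of middle depth 149 and 19, a minimum of 50 counts 1004 and 531, a minimum of 2000 counts 62 and 0, and 2-fold 17 and 0. Scaled without ribosomal proteins the counts were 229 and 13, without the 5% of cells with most counts 266 and 15, and with cells weighted equally 412 and 17.

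The TE ratio of 1.03 became 1.103 at 20%, 1.05 at 30%, 1.00 without ribosomal proteins in the scaling, 1.07 without the 5%, 1.14 with equal weights and 1.05 with the share over gene counts alone. The ribosomal protein ratio of 0.929 became, in the order 20%, 30%, scaling, features without a number, without the 5%, equal weights and middle depth, 0.945, 0.924, 0.906, 0.917, 0.934, 0.923 and 0.935. The rRNA ratio of 3.71 became 2.94, 4.61, 3.62, 3.49, 3.67, 3.65 and 3.69 at 20%, at 30%, with the scaling, without the 5%, with equal weights, at middle depth and over gene counts alone. The ratio of other mitochondrial RNA, 1.14, became 1.17, 1.16, 1.11, 1.16, 1.23, 1.09 and 1.14 in that order.

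The alternatives that follow, and the 2 mitochondrial ratios as results, were chosen after seeing the data. Ranked by rRNA, the TE ratio turned to 0.996, and the rRNA and other mitochondrial ratios were 3.70 and 1.06. Ranked by other mitochondrial RNA, 113 genes were higher and 48 lower, the TE ratio was 1.32, the ribosomal protein ratio turned to 1.01, nuclear counts per cell were 0.684 times those of the others, and the rRNA and other mitochondrial ratios were 1.07 and 1.62. In that ranking log2 ratios turned for HIST2H2BF (-0.43), HIST1H2BC (-0.66), HIST1H3H (-0.15), HIST1H2BF (-0.46), PODXL (-0.054), NUP98 (-0.18), HIST1H2BJ (-0.66), HERC5 (0.50) and RAD51D (0.18). Without cells above 40%, 265 genes were higher and 18 lower, the ribosomal protein ratio was 0.931 and the rRNA ratio 3.11. Without shared barcodes the ribosomal protein ratio was 0.926. Of 312 values of the 24 named genes, 241 stayed within their counting interval, 62 left it with the same sign and 9 turned. Of 442 values of the 34 list medians, 38 moved by over 0.1 and 41 differed in sign from the main value.

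No paired analysis was possible because each line and treatment was 1 library. Leaving out a replicate was not run, for the same reason. Genes with few counts were limited by depth.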
